A study of Mus musculus with 4 samples.

Results

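Transcripts of 9 B cell surface receptor genes were compared between BCR-ABL1-transformed mouse cell lines with mutated Cdk4 and Cdk6 and wild-type lines transformed in the same way. The genes were Cr2, Cd22, Cd24a, Tnfrsf13c, Ms4a1, Cd40, Fcer2a, Cd72 and Cd37, out of 20972 genes with a symbol on the array. They were picked by name, with earlier results of these same arrays known. Every array probe whose RefSeq accession belongs to one of them was kept, which gave 13 probes. Cr2, Tnfrsf13c, Cd72 and Cd37 had 2 probes each and the other 5 genes had 1. Because these ratios were known when the genes were picked, they are given as a description. Calls from the fit over all genes, and under the processing alternatives, are counted below beside those among all genes. They support nothing about these genes.

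The R/R lines were homozygous for 2 knock-in alleles, Cdk4 R24C and Cdk6 R31C, and the lines set against them were wild type (WT) at both genes. All lines grew out as spontaneously immortal clones from fetal liver of a mixed C57BL/6J x CD-1 background after transduction with the p185 form of BCR-ABL1, and asynchronous cultures were harvested with no further treatment. RNA of R/R clones 1, 2 and 3 (Cy5) was hybridised on an array each against a WT pool (Cy3), and the fourth array carried an R/R pool (Cy3) against the WT pool (Cy5). Each R/R line is 1 clone, the labels of clones 1 and 2 share a leading number, and the labels do not say what the pools held or how the lines were typed as B cells. In each channel 42.8% to 53.4% of spots were well above background.

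These receptors tune how a B cell reads antigen and survival signals. CR2 (CD21) binds complement fragments and strengthens signalling by the B cell receptor when antigen carries them. CD22 and CD72 carry inhibitory motifs that recruit the phosphatase SHP-1 and dampen it, and CD37 is a tetraspanin that organises membrane partners. BAFF receptor (Tnfrsf13c) and CD40 belong to the tumour necrosis factor receptor family and feed the noncanonical NF-kB pathway. In normal mouse B cell development CD24 (Cd24a) is high on immature cells, whereas CR2, CD23 (Fcer2a), CD22, CD20 (Ms4a1) and BAFF receptor rise towards the mature stages.

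The B-lineage markers bear on what these lines are. All 10 markers (among them Cd79a, Cd79b, Pax5, Ebf1, Vpreb1, Igll1, Rag1, Rag2 and Blnk) were well above background in all 4 R/R and all 4 WT channels. Among markers of other cell types, 2 of 9 erythroid, 3 of 8 myeloid and 5 of 9 T and NK markers were so in all 4 R/R channels, as were none of 7 mast cell and megakaryocyte markers and 2 of 8 endothelial, stromal and hepatocyte markers. In the 4 WT channels the numbers were 2, 5, 5, 0 and 3 in the same order. The summed signal of the erythroid markers was 11.8 to 12.2 on the log2 scale in R/R channels and 13.2 to 13.4 in WT channels, while Klf1, Epor, Hba-a1 and Alas2 were not well above background in either. Of the 2 erythroid markers that entered the fit, the beta-globin gene Hbb-bt was called, at -1.84 ± 0.20 (limma adjusted p = 0.0417). The other, Tfrc, had 0.26 ± 0.19 and was not called. Its ratios were -0.27, 0.64 and 0.45 in the clones and 0.24 in the R/R pool. The summed myeloid signal was 14.1 to 15.1 in R/R channels and 14.9 to 15.0 in WT channels, with Mpo and Cebpa dim in both, and the summed T and NK signal was 11.5 to 12.7 in R/R channels and 11.8 to 11.9 in WT channels, with Cd3d, Cd8a and Ncr1 dim in both. For the mast cell and megakaryocyte markers the sums were 8.84 to 8.95 in R/R channels and 8.85 to 8.91 in WT channels, with Cpa3, Mcpt8, Fcer1a, Pf4 and Itga2b dim in both. For the endothelial, stromal and hepatocyte markers they were 9.32 to 9.49 in R/R channels and 9.43 to 9.54 in WT channels, with Alb, Afp, Ttr, Cdh5 and Pdgfrb dim in both. Well above background in all 4 R/R and all 4 WT channels were Hbb-bt and Tfrc (erythroid) and Itgam, Csf1r and Elane (myeloid). So were Cd3e, Cd4, Lck, Zap70 and Klrb1c (T and NK) and Col1a2 and Pecam1 (endothelial, stromal and hepatocyte). The part of these other markers in the receptor values was not tested. In such bulk RNA, fewer cells of a type and less RNA per cell cannot be told apart.

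The promoters of the 5 genes with a measured probe and a ratio below 0 on every array are shown because their ratios had the same sign. RefSeq promoter sequence (GRCm38.p6) was at hand for 6 of the 9 genes. Each line gives the 250 bases before the annotated start, 5′ to 3′ on the gene's strand. Capitals mark 4 motifs searched on both strands: the core of PU.1 and SpiB sites GAGGAA, the EBF1 core CCCNNGGG, the octamer ATTTGCAT and the E2A E-box CAGGTG.
Cr2, chr1:195176720-195176969, minus strand: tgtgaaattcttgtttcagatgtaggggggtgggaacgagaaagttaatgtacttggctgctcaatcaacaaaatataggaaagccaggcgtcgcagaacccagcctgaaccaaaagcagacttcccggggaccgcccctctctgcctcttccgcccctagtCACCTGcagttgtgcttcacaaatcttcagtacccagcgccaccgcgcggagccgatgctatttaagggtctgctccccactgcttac
Cd22, chr7:30879029-30879278, minus strand: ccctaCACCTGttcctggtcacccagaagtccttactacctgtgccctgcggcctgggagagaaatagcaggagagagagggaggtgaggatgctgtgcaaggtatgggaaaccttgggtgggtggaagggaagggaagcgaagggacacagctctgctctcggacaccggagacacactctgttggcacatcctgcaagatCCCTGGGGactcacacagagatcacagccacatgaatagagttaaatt
Tnfrsf13c, chr15:82224381-82224630, minus strand: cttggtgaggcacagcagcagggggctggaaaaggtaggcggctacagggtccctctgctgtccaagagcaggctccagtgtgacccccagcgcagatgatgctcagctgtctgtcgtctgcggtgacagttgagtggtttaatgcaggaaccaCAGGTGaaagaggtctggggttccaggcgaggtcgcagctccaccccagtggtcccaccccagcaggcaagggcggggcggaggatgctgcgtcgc
Cd72, chr4:43454627-43454876, minus strand: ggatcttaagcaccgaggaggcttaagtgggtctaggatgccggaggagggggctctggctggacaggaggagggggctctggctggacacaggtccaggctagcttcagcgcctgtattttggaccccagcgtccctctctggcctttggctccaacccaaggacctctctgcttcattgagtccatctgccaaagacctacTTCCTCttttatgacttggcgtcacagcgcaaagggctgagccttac
Cd37, chr7:45238840-45239089, minus strand: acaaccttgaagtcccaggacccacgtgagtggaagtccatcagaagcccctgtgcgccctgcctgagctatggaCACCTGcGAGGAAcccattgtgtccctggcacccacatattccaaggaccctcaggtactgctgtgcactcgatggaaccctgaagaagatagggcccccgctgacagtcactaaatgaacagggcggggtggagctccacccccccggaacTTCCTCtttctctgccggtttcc
No motif match overlaps another in these windows. The E-box lies in the windows of Cr2, Cd22, Tnfrsf13c and Cd37, and 17.2% of all 32851 promoter windows of this length hold it. GAGGAA lies in those of Cd72 and Cd37 (23.3% of all windows) and the EBF1 core in that of Cd22 (11.8%), while no octamer was found in the 5 windows (1.6% of all). In Cd37 one GAGGAA match stands at -23 to -18 and another at -168 to -163 from the start, and in Cd72 the match is at -47 to -42. The promoter at hand for Fcer2a is not shown because its ratios took both signs. Its second annotated window holds the E-box at -244 to -239 and at -99 to -94, and its other windows hold none of the 4 motifs. The 5 windows were chosen by the sign of the ratios, so nothing is read from how many hold a motif. A match is a run of letters in the sequence, and binding was not measured.

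The receptor genes had log2 ratios of R/R over WT from -1.55 (Cr2) to 0.67 (Cd24a), and 1 of them, Cr2, passed the test over all genes. By the brightest probe, 5 genes (Cr2, Cd22, Tnfrsf13c, Cd72 and Cd37) had log2 ratios below 0 on all 4 arrays and Cd24a had ratios above 0 on all 4. Of the 20045 genes tested, 12296 had a symbol and the rest were counted by their array identifier. Of all of them, 16.2% were below 0 on all 4 arrays and 14.6% above, and the arrays share the WT pool. The probe of Cd40 was not well above background in any channel, so 8 of the 9 genes entered the fit. Their median log2 ratio was -0.52, against -0.0155 over all genes tested. By limma over all genes (Benjamini-Hochberg adjusted p under 0.05), 1 of the 8 was called lower, Cr2, and none was called higher. Cd22, Cd24a, Tnfrsf13c, Ms4a1, Fcer2a, Cd72 and Cd37 were not called. The same fit called 0.374% of all genes lower and 0.15% higher (0.524% in either direction), and at an unadjusted p under 0.05 it had 5 of the 8 lower and 1 higher, against 8.1% and 7.27% of all genes. Taken per probe, 3 of the 12 measured member probes were called lower (the brighter ones of Cr2 and Tnfrsf13c and the dimmer one of Cd37), against 0.401% of all probes. These counts use the ratios the genes were picked with, and nothing is read from them. Without clone 3 the called members were Cr2 and Tnfrsf13c, and the genes called lower over the whole table numbered 176 without clone 3 and 47 without clone 1, against 75 with every array.

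**Figure D1:**
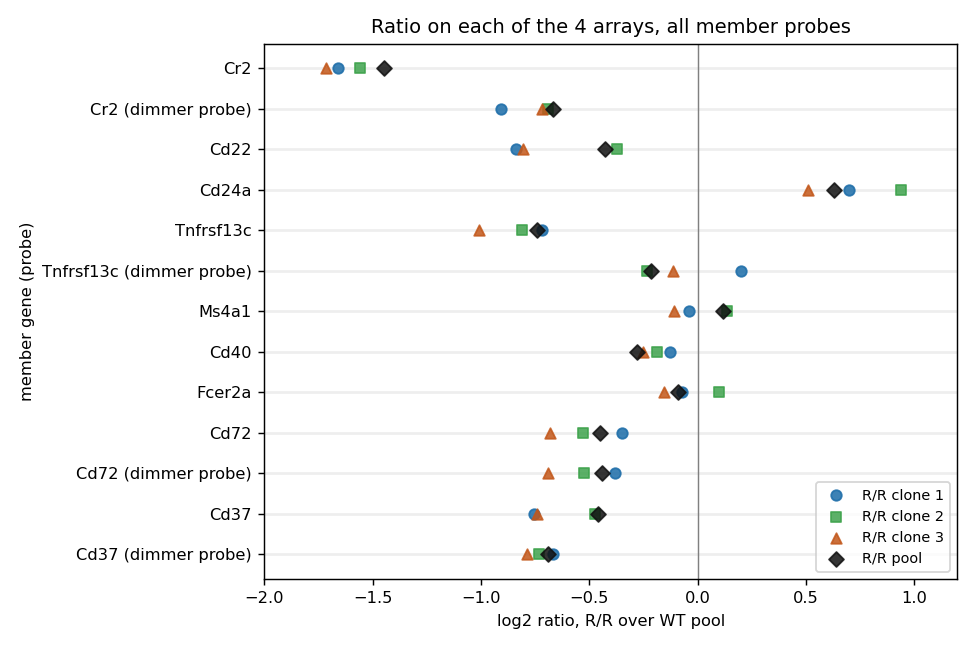
Log2 ratio of R/R over the WT pool (horizontal axis) for each of the 13 probes (vertical axis), with 1 point per array: circle, square and triangle for R/R clones 1, 2 and 3 and a diamond for the R/R pool. The Cr2 points lie furthest left, from -1.72 to -1.45 by the brighter probe, the Cd24a points lie to the right of 0, and the points of Ms4a1 and Fcer2a fall on either side of 0.

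Cr2, the complement receptor gene whose transcript gives CR2 and, by splicing in the mouse, CR1, had the lowest ratio. By its brighter probe (A_55_P1971729) the normalised log2 signal was 7.51, 7.85 and 7.62 in R/R clones 1, 2 and 3 and 7.71 in the R/R pool, against 9.17, 9.41, 9.33 and 9.16 for the WT pool on the same arrays. Every R/R value lay more than a log2 unit below every WT value. The log2 ratios were -1.66, -1.56 and -1.72 in the clones and -1.45 in the R/R pool, with a fitted value of -1.55 ± 0.09 (here and below ± is the fit's standard error, over 3 clones and an R/R pool), or 2.92-fold higher in WT. The spread between the clones was an SD of 0.08, the smallest of the 8 fitted probes. The dimmer Cr2 probe (A_55_P1971724) gave -0.91, -0.69 and -0.72 in the clones and -0.67 in the R/R pool. Its R/R signal of 6.28 to 6.59 lay wholly below its WT signal of 7.18 to 7.26. Both probes thus had the same direction, and the size differed between them. R/R spot medians before background correction were 49.5 to 111 for the dimmer probe and 129 to 346.5 for the brighter. With the scanner software's log ratios, which differ in both background and dye correction, the fitted values were -1.99 for the brighter and -1.73 for the dimmer probe, and with normexp at an offset of 16 in place of 50 they were -1.73 and -1.04.

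The tetraspanin gene Cd37 had ratios below 0 on all 4 arrays by both of its probes. Its brighter probe had signals of 11.73, 11.97 and 11.78 in the clones and 11.97 in the R/R pool, against 12.49, 12.44, 12.52 and 12.43 for the WT pool. The groups did not overlap. The ratios were -0.76, -0.47 and -0.74 in the clones and -0.46 in the R/R pool, fitted at -0.56 ± 0.10 (1.47-fold higher in WT). The dimmer Cd37 probe gave -0.67, -0.73 and -0.79 in the clones and -0.69 in the R/R pool, fitted at -0.71 ± 0.09. Clone 2 stood apart from clones 1 and 3 by the brighter probe and not by the dimmer one.

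Both inhibitory receptor genes had ratios below 0 on all 4 arrays, and neither was called. Cd22, the sialic acid-binding lectin Siglec-2, had signals of 8.93, 9.38 and 8.91 in the clones and 9.14 in the R/R pool, against 9.77, 9.76, 9.71 and 9.56 for the WT pool. The R/R values lay below all WT values, with clone 2 the nearest. Its ratios were -0.84, -0.37 and -0.81 in the clones and -0.43 in the R/R pool, fitted at -0.55 ± 0.12 (1.46-fold higher in WT). The range over the clones, 0.47, was the widest of the set. Cd72, a C-type lectin receptor that binds CD100, had signals of 10.19, 9.95 and 9.77 in the clones and 9.94 in the R/R pool, against 10.54, 10.48, 10.45 and 10.39 for the WT pool. Here clone 1 came nearest to WT and clone 3 lay lowest, without overlap. The Cd72 ratios were -0.35, -0.53 and -0.68 in the clones and -0.45 in the R/R pool, fitted at -0.49 ± 0.10 (1.4-fold higher in WT). The dimmer Cd72 probe gave -0.38, -0.53 and -0.69 in the clones and -0.44 in the R/R pool, so the 2 probes differed by at most a few hundredths on any array.

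Of Tnfrsf13c and Cd40, the tumour necrosis factor receptor genes of the set, only Tnfrsf13c was measured above background, and its probes disagreed. The brighter probe (A_55_P2117614) had signals of 9.37, 9.24 and 9.14 in the clones and 9.27 in the R/R pool, against 10.08, 10.05, 10.15 and 10.02 for the WT pool. All R/R values were below all WT values. The ratios were -0.72, -0.81 and -1.01 in the clones and -0.74 in the R/R pool, fitted at -0.79 ± 0.10 (1.73-fold higher in WT). The dimmer probe (A_55_P2117623) gave 0.20, -0.23 and -0.11 in the clones and -0.22 in the R/R pool, fitted at -0.13 ± 0.11. Its R/R signal of 6.57 to 6.88 overlapped its WT signal of 6.68 to 6.91. With the scanner software's ratios the dimmer probe had -0.31 and the brighter -0.86, so the disagreement remained. The dimmer probe's signal was low, with R/R spot medians of 58 to 115 before background correction, against 419 to 972 for the brighter. The part of low signal in the disagreement was not tested. Where on the transcript each probe lies was not analysed here. Cd40 was not well above background in any of the 8 channels, and its R/R signal of 5.89 to 6.04 and WT signal of 6.11 to 6.23 give no fold.

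Cd24a, which encodes the heavily glycosylated GPI-anchored protein also called heat stable antigen, had ratios above 0 on all 4 arrays and was not called. Its signal was 12.53, 12.76 and 12.36 in the clones and 12.55 in the R/R pool, against 11.83, 11.82, 11.85 and 11.92 for the WT pool. No R/R value overlapped a WT value. The ratios were 0.70, 0.94 and 0.51 in the clones and 0.63 in the R/R pool, fitted at 0.67 ± 0.11 (1.59-fold higher in R/R). The WT pool varied little for this probe, with an SD of 0.0134 over its 3 Cy3 arrays, against an SD of 0.202 over the R/R clones.

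The remaining receptor genes had no shared direction on the 4 arrays. Ms4a1, which encodes CD20, had signals of 6.48, 6.66 and 6.52 in the clones and 6.63 in the R/R pool, against 6.52, 6.53, 6.63 and 6.52 for the WT pool. The groups overlapped fully, and the fitted ratio was 0.06 ± 0.10 with 2 arrays on either side of 0. The Ms4a1 signal was low, with R/R spot medians of 56 to 117 before background correction, against 44 to 103.5 for Fcer2a. With the scanner software's ratios the Ms4a1 value was 0.16. Fcer2a, which encodes the low-affinity IgE receptor CD23, had signals of 6.45, 6.54, 6.19 and 6.33 in the clones and R/R pool, against 6.53, 6.44, 6.35 and 6.42 for the WT pool. Its fitted ratio was -0.07 ± 0.10. The R/R RNA gave Fcer2a spots well above background on 2 of 4 arrays and the WT RNA on 4 of 4, so its R/R level lay near the background. With the scanner software's ratios the value was -0.47.

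**Figure D2:**
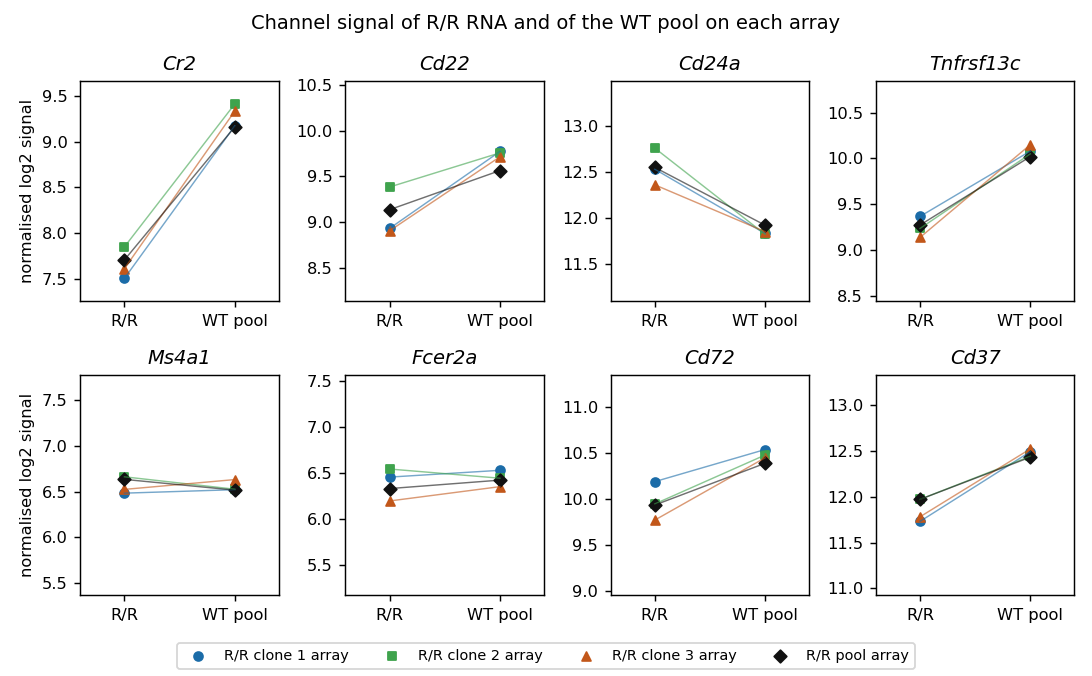
Normalised log2 signal (vertical axis) of the R/R RNA at left and the WT pool at right for the brightest probe of the 8 genes with a measured probe, with a line joining the 2 channels of each array and the same marker shapes for the 3 clone arrays and the pool array. Every panel spans the same height. In Cr2, Cd22, Tnfrsf13c, Cd72 and Cd37 all R/R points lie below all WT points, in Cd24a they lie above, and in Ms4a1 and Fcer2a they overlap.

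The WT pool, measured 4 times, shows how far repeat measurement moves these values. Over the 3 Cy3 arrays its SD was 0.0134 to 0.122 per probe, with a median of 0.0506. All 4 channels carry the same WT pool label, so this spread holds nothing of how WT lines differ from each other. In 5 genes the R/R levels lay wholly below the WT levels and in 1 gene wholly above, and of all genes tested 9.55% lay wholly below and 9.17% wholly above. The fit likewise uses the spread between R/R clones and leaves out that of WT lines.

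The clones were not alike across the receptor set, and which clone was most different depended on the gene. Clone 2 had the highest ratio of the 3 clones in 6 of 8 genes and clone 3 the lowest in 6 of 8. The exceptions to the first were Tnfrsf13c and Cd72, in which clone 1 was highest. Clone 1 was lowest in Cd22 and Cd37. The median ratio over the 8 genes was -0.53 in clone 1, -0.42 in clone 2, -0.71 in clone 3 and -0.44 in the R/R pool. The range over the clones had a median of 0.289 over the 8 genes and 0.321 over all genes tested. With 1 array per clone, no difference between clones was tested. The R/R pool fell within the range of the clones in 6 genes, and in Cr2 and Cd37 it lay nearer to 0 than any clone.

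**Figure D3:**
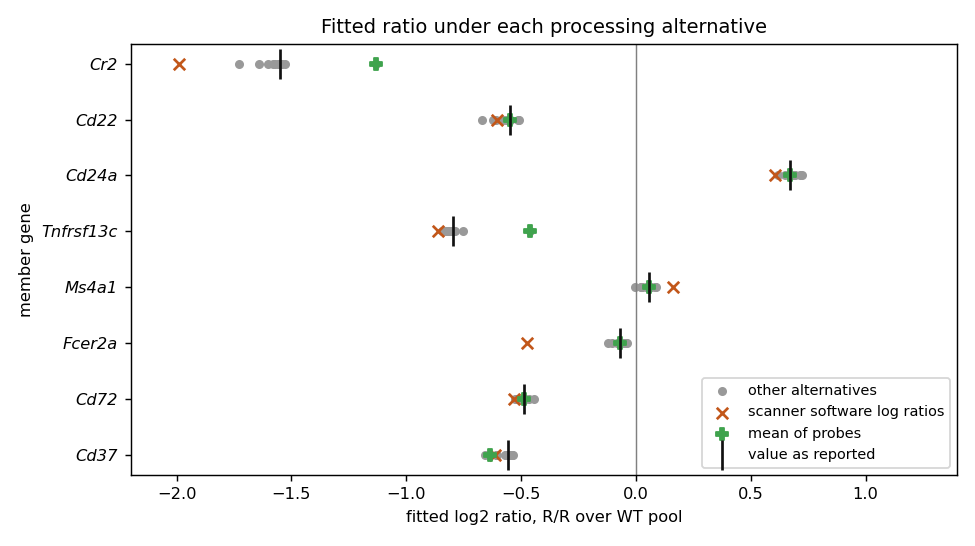
Fitted log2 ratio of R/R over the WT pool (horizontal axis) for the 8 genes with a measured probe (vertical axis), with a vertical bar at the value as reported, a cross for the scanner software's log ratios, a plus for the mean of a gene's probes and grey points for the other alternatives. Cr2 ranges from -1.99 to -1.13 and Tnfrsf13c from -0.86 to -0.46, while Cd24a stays between 0.61 and 0.72 and Fcer2a reaches -0.47 with the scanner ratios alone.

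Genes whose ratios lay nearest to those of each receptor gene were found by Euclidean distance over the 4 arrays among 11737 named genes. Nearest to Cr2 was Pde4dip (distance 0.281, ratios of -1.45, -1.70 and -1.82 in the clones and -1.45 in the R/R pool). Nearest to Cd22 was Eif4ebp1 (0.0734), to Cd24a Mpzl2 (0.176), to Tnfrsf13c the noncoding gene Snhg1 (0.151), to Cd72 Hid1 (0.0416) and to Cd37 the cadherin gene Cdh1 (0.14). For Ms4a1 it was Cnst (0.0329) and for Fcer2a Rab42 (0.0455).

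The signalling partners of these receptors were taken from lists of known pathway genes. The lists, also those of family members and B cell stages, hold none of the 8 receptor genes that entered the fit. In 10 lists of partner genes with 144 genes, 112 entered the fit, and limma called none in either direction. The same fit called 0.524% of all genes tested. At an unadjusted p under 0.05 it had 9 of the 112 higher and 10 lower. Of all genes tested, 7.27% were higher and 8.1% lower at that threshold. Nothing is read from these counts or from those per list below. The median log2 ratio of the 112 was -0.0542. In the list of complement genes and membrane partners of CR2 none of 9 measured genes was called (0 higher and 1 lower at an unadjusted p under 0.05) and the median was -0.107. Cd55, which encodes the complement regulator decay-accelerating factor, had -0.55 ± 0.11, with -0.43, -0.54 and -0.81 in the clones and -0.51 in the R/R pool. The tetraspanin gene Cd81, a membrane partner of CR2, had -0.22 ± 0.10. Ifitm1, which encodes a small interferon-induced membrane protein, had -0.28 ± 0.71, with 1.23 in clone 1, -0.02 in clone 2 and -2.77 in clone 3.

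Of the 14 measured genes for inhibitory receptor signalling none was called (1 higher and 1 lower at an unadjusted p under 0.05), and the median was -0.0664. The enzyme genes Cmah and St6gal1, which modify and attach the sialic acids that CD22 binds, had -0.75 ± 0.18 and -0.64 ± 0.33. Cmah stood at -1.13 in clone 1 and at -0.22 in clone 3, with no array above 0, and St6gal1 took both signs, with 0.24 in clone 2. Ptpn6, which encodes SHP-1, had -0.37 ± 0.19, again with both signs among the clones.

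The 13 measured genes of the BAFF and CD40 pathway lay closest to 0, between -0.154 and 0.156 with a median of 0.00718 (0.0311 without clone 3). None was called, and none had an unadjusted p under 0.05 in either direction. The adaptor gene Traf2 had 0.16 ± 0.14 and Nfkb2, the noncanonical NF-kB subunit, had -0.15 ± 0.10. The other BAFF-binding receptor in the list, Tnfrsf13b (TACI), had -0.05 ± 0.12 beside the -0.79 of the brighter Tnfrsf13c probe.

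Family members of Cd37 and Ms4a1 varied. Of 15 measured tetraspanin genes none was called (2 higher and 3 lower at an unadjusted p under 0.05) and the median was -0.0707. Tspan13 had 0.98 ± 0.14, with 0.86, 0.39 and 0.25 in the clones and 1.46 in the R/R pool, and Cd53, a leukocyte tetraspanin, had -0.66 ± 0.17. In the MS4A family without Ms4a1, 2 of 13 genes on the array entered the fit. They were Ms4a4c at -0.34 ± 0.20 and Ms4a4b at -0.011 ± 0.127, and neither was called. In the list for CD23 shedding and interleukin 4 signalling, 7 genes had a median of -0.0608, none was called, and 1 was lower at an unadjusted p under 0.05. The interleukin 4 receptor gene Il4ra had -0.45 ± 0.13 and Stat6 had -0.18 ± 0.09.

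Genes of the B cell receptor and of B cell stages had values on either side of 0. None of 14 B cell receptor and pre-B cell receptor genes was called (1 higher and 1 lower at an unadjusted p under 0.05), with Fyn at -0.52 ± 0.11, Blnk at 0.42 ± 0.14 and a median of 0.0397 (-0.0121 without clone 1). Of 9 early surface markers none was called (3 higher and 0 lower at an unadjusted p under 0.05), and Enpep, also called BP-1, had -0.50 ± 0.28 and Il7r had 0.48 ± 0.19. Of 13 late surface markers none was called (1 higher and 2 lower at an unadjusted p under 0.05), and the chemokine receptor gene Cxcr5 had -0.75 ± 0.43, with 0.56 in clone 1 and -1.73 in clone 3, whereas Fcrla had 0.62 ± 0.28. Medians, without the receptor genes, were -0.165 for the early and -0.0589 for the late markers. Their signs rested on 1 clone: without clone 3 the early median was 0.079, and the late median was 0.0471 without clone 1 and -0.197 without clone 2. Among 17 B-lineage transcription factor genes none was called (1 higher and 1 lower at an unadjusted p under 0.05), the median was -0.0481, and the largest values were Spib at -0.79 ± 0.19 and Klf2 at 0.46 ± 0.25.

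**Figure D4:**
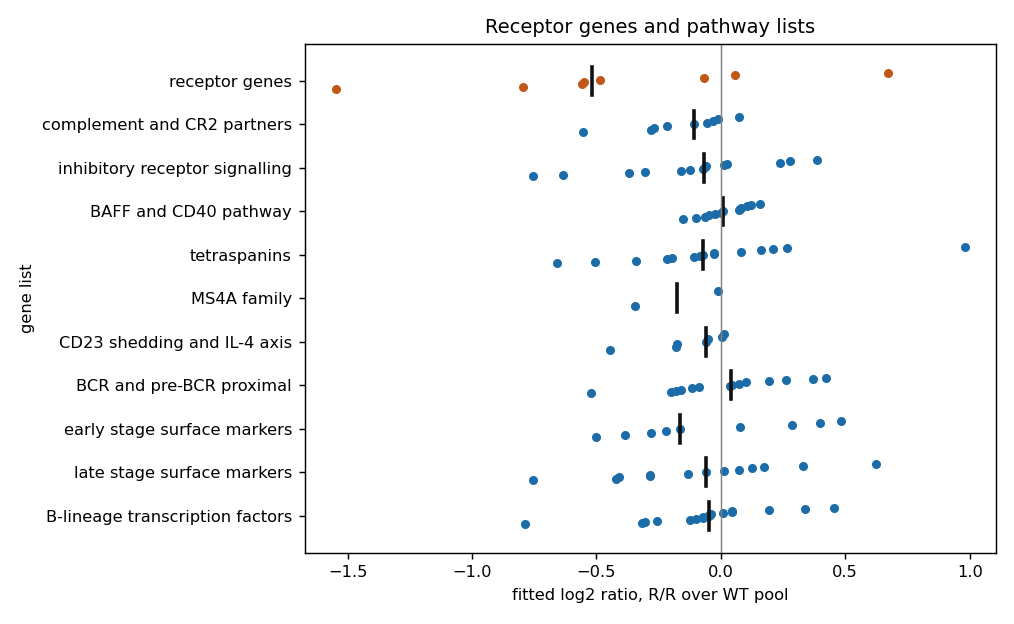
Fitted log2 ratio of R/R over the WT pool (horizontal axis) for the receptor genes in orange and for 10 lists of partner genes in blue (vertical axis), with 1 point per gene that entered the fit and a black bar at the median of each list. The receptor genes have a median of -0.52, and the medians of the other lists lie between -0.177 and 0.0397.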

How the data were processed

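Gene expression was measured on 4 two-colour Agilent arrays. The deposited intensity values are, per the file headers, the median brightness of each spot and of its surroundings, read by Feature Extraction 11.5.1.1. Beside them stand intensities that the scanner software had corrected for background and dye. The deposited log10 values are the log10 of corrected Cy5 over Cy3, as checked against those intensities. Starting from the median intensities, limma 3.58.1 in R 4.3.3 applied normexp (offset 50) and then loess to each array, without 210 to 265 outlier spots per array. A probe entered if at least 3 of 4 arrays had it well above background in either RNA, which left 26439 of 55681. The brightest probe represented each of 20045 genes, of which 12296 had a symbol. The rest were counted by their array identifier, and the shares of all genes cover both. Each of the 20045 was fitted with a genotype and a dye term (2 residual degrees of freedom, two-sided, Benjamini-Hochberg adjusted p under 0.05), with the sign turned on the dye-swapped array. The WT pool counts as 1 control sample. Channel signals come from the loess ratios and quantile-adjusted mean intensities. Symbols and promoters come from RefSeq (GRCm38.p6), by accession, for 27656 probes.

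The members, lists and rules were chosen with earlier results of these data known. Named genes were all members, the nearest gene to each, and in each pathway list its 2 largest ratios and its called genes. Hbb-bt, Tfrc, Cd81, Ptpn6, Tnfrsf13b and the other named markers of non-B cell types were named after their values were seen. Alternatives changed background and dye correction together (scanner ratios), the background offset (16), the scaling (median centring, scale), the filter (none, strict), the use of probes (mean, every probe) and the model (clones alone, dye term dropped, a clone omitted, clones 1 and 2 averaged, intensity trend). Separate cultures are not described, so p-values measure the spread between these clones, which limma moderates over all genes. The R/R pool array alone sets the dye term. A gap between the pool and the clones therefore enters neither the standard error nor the p-value. Some list genes are not reported here by name. The number of arrays limits the precision.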

Additional observations from a re-analysis of the deposited data

How the results depend on the processing

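The direction of Cr2, Cd22, Cd24a, Tnfrsf13c, Cd72 and Cd37 was the same in all 15 alternatives, and that of Fcer2a in all 14 that gave it a value. Ms4a1 changed sign in 1 of 15. For genes with the same sign on every array, many of these agreements were fixed in advance. Leaving out or averaging clones, the clones alone, scaling and dropping the dye term only re-weight the same ratios. The filters and the intensity trend left the fitted values of these genes unchanged. Cr2 was called in all 15, Tnfrsf13c in 5 and Cd37 in 2, and Cd22, Cd24a and Cd72 in 1 each, with no dye term. Called members numbered 2 with scaling, 3 with every probe, 2 on the clones alone, and 5 lower and 1 higher with no dye term. Leaving out each clone in turn gave 1 to 2. Over all genes, higher and lower calls numbered 30 and 75 as reported, 34 and 79 with scaling and 44 and 98 on the clones alone. They numbered 6 and 44 for the scanner ratios, 2 and 28 after median centring and 490 and 650 with no dye term. With every probe, 49 were higher and 106 lower among 26439 probes, and 48 genes were lower with the strict filter. Leaving out a clone gave 11 to 88 higher and 47 to 176 lower. Of the partner genes, 1 was called lower with the scanner ratios, 1 higher and 7 lower with no dye term, 1 higher with an intensity trend (Tspan13) and 0 to 1 higher when a clone was left out. The median clone range of the members was 0.436 when the scanner ratios were used and 0.667 after centring on medians. The median SD of the WT pool was 0.0825 with processed signals. Of 150 list medians under alternatives, 12 moved by more than the spread taken for that value. The early marker median was 0.0264 with no filter, the CD23 list's 0.0331 on the clones alone and the MS4A list's 0.0154 and 0.0167 under those settings, and the BAFF and CD40 median was -0.0165 with clones 1 and 2 averaged, -0.0126 after median centring and -0.000662 with no filter or every probe, all of the other sign. The cause was not tested. The deposited log2 table was not used, since its row numbers match no probe name, and 1 slide held all arrays, so no block could be fitted. Each ratio sets R/R against WT RNA on the same array, so the fit is paired by array. The labels pair no clone with the R/R pool.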
